A study of Mus musculus with 3 samples.

Results

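Calm2, Calm3, Pcp4, Pcp4l1 and Nrgn, 5 genes of the calmodulin system, were followed across the layers of the mouse main olfactory bulb. The members were chosen by name, 2 calmodulin genes and 3 genes of small proteins that carry an IQ motif, and make up 5 of the 19621 genes in the files. All 5 were among the 1996 genes that had enough counts to be tested. Poly(A) RNA was captured on spot arrays from 3 coronal sections of C57BL/6J mice aged 12 weeks, for which the labels name no treatment, and each section is 1 sample (sections 1, 2 and 3). The deposited annotation places the spots in 9 regions, nested from the surface to the core. The outer ones are ONL (olfactory nerve layer), GL (glomerular layer), EPL (external plexiform layer) and M/T (mitral layer), and the inner ones are IPL (internal plexiform layer), GCL-E and GCL-I (external and internal parts of the granule cell layer), E (ependymal cell zone) and RMS (rostral migratory system). How they were drawn, and whether expression was used for it, is not stated in the labels or files. The labels do not tie the sections to animals, so p-values speak only for these sections. With section as a term of the main fit, they rest on how far region differences varied from section to section, pooled over the 9 regions.

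Calmodulin is the calcium sensor that nearly every cell uses: calcium fills its EF-hand loops, and the protein then switches on kinases, phosphatases, pumps and cyclases. In mammals separate genes encode the same calmodulin protein. The small IQ-motif proteins hold calmodulin or change how fast it takes up and gives off calcium. Pcp4 (also called PEP-19) speeds calcium exchange on calmodulin, Nrgn (neurogranin) is a postsynaptic protein that binds calcium-free calmodulin and lets it go when phosphorylated by protein kinase C, and Pcp4l1 is the closest relative of Pcp4. In the bulb the granule cells, inhibitory neurons without an axon, lie in the deep layers and send dendrites into the external plexiform layer, where they meet the dendrites of the mitral and tufted cells.

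The coding sequences show what sets the members apart. In the GENCODE M21 annotation of mm10, Calm2 (chromosome 17, 87433412 to 87446935, minus strand) and Calm3 (chromosome 7, 16915379 to 16924114, minus strand) each have 450 coding bases. They differ at 78 of these bases (82.7% identity) and at 0 of 149 residues, and each protein has 4 matches to the EF-hand pattern. The stretch that codes for the first EF-hand loop (residues 21 to 32) is shown 5′ to 3′ because it lets the calmodulin transcripts be told apart, with capitals at the bases that differ from Calm2.
Calm2: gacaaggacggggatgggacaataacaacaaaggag
Calm3: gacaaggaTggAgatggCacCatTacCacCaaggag
Within this loop Calm3 differs from Calm2 at 7 of 36 bases. The small proteins are instead recognised by their IQ motif, the calmodulin-binding segment, whose codons are in capitals in the following coding sequence.
Pcp4: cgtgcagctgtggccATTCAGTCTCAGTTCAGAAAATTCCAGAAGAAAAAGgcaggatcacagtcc
Pcp4l1: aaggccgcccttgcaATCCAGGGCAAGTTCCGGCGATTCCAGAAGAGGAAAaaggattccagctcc
Nrgn: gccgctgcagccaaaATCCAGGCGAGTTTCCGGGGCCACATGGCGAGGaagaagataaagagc
Pcp4 and Pcp4l1 share 24 of the 36 bases of the motif. Over the whole protein, 31 of the 62 residues of Pcp4 (50%) are identical in Pcp4l1 (68 residues) and 18 (29.0%) in Nrgn (78 residues). Pcp4 lies on chromosome 16 (96467606 to 96525793, plus strand), Pcp4l1 on chromosome 1 (171173262 to 171196268, minus strand) and Nrgn on chromosome 9 (37544492 to 37552904, minus strand).

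Sections 1, 2 and 3 held 344372, 650890 and 505710 counts, and the labels do not say whether these are unique molecular identifiers. A spot with counts held 3.04, 4.12 and 3.46 of them on average, and each member was seen in at most 0.515% of such spots of a section, so the counts of each region of a section were added up, giving 27 sums, which were scaled to a common total (CPM). A spot is a small patch of tissue and not a cell, and in such sums fewer cells of a type and less RNA per cell cannot be told apart. RMS was the smallest region in sections 2 and 3, with 16285, 5162 and 1456 counts in the 3 sections, so in section 3 a single count there is worth 687 CPM. In the 9 regions together Calm2 had 2177 counts, Calm3 1590, Pcp4l1 1421, Pcp4 1342 and Nrgn 538.

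Section 1 stood apart from the others for several members. Pcp4 measured 1485 CPM over all regions of section 1 and 723 and 727 CPM in sections 2 and 3, and Nrgn measured 662, 265 and 277 CPM in the same sections. Calm3 had 1563 CPM in section 1, against 829.9 and 1030 CPM in the others, and Calm2 had 1766, 1343 and 1401 CPM. Pcp4l1 was the most even, at 1081, 907 and 925 CPM. Section was therefore a term in every test, and the calls that rest on a particular section are named with the results.

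**Figure D1:**
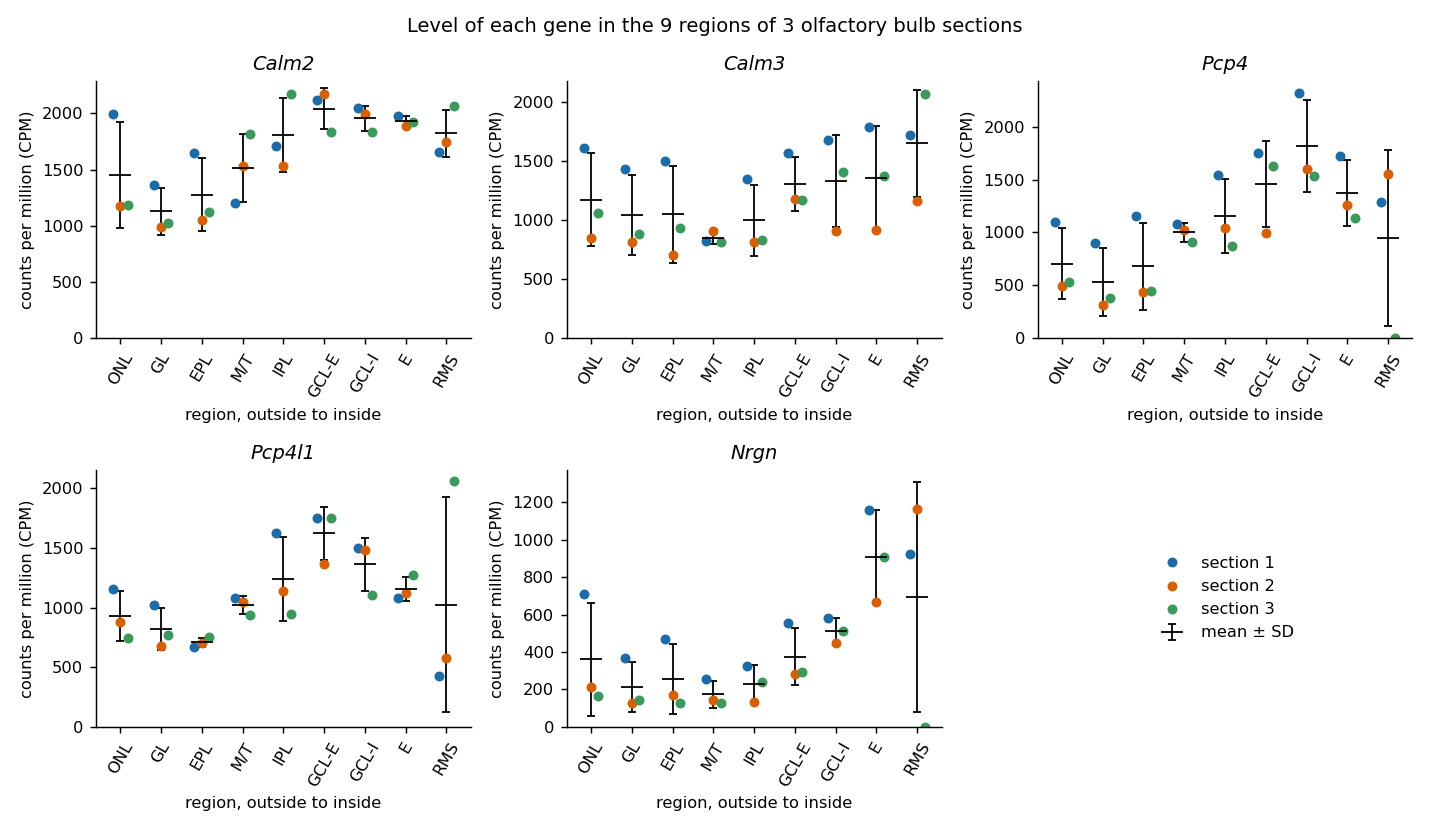
Level of each gene (CPM, y axis) in the 9 regions from outside to inside (x axis). Coloured points are the 3 sections, horizontal bars the mean and whiskers the SD. Pcp4 has its highest mean in GCL-I (1816 CPM) and its lowest in GL (529 CPM), Nrgn has its highest in E (909 CPM), and the means of Calm3 lie between 848 and 1647 CPM.

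The first question was whether the share of counts taken by a member differed between any of the regions. It did for 4 of the 5 members in edgeR's quasi-likelihood test (Benjamini-Hochberg adjusted p = 3.7e-21 for Nrgn, 3.1e-20 for Pcp4, 5e-05 for Pcp4l1 and 0.0047 for Calm2), and 23.2% of all tested genes passed the same test. Calm3 did not pass (adjusted p = 0.49). The call for Calm2 was lost without section 2 (adjusted p = 0.74) and without section 3 (0.28), and that for Pcp4l1 without section 2 (0.097).

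Each region was then set against the unweighted mean of the other 8. Of 45 such member tests 8 passed, 4 of them higher and 4 lower in the region, and Pcp4 held 4 of the 8. The calls lay at the outside of the bulb in GL and EPL, where they were all lower, and in its core in GCL-I and E, where they were all higher. Of all 1996 tested genes, 43 were called lower and 175 higher in GL, and 27 lower and 215 higher in EPL. In GCL-I 18 were called lower and 48 higher, and in E 9 lower and 43 higher. The median of all tested genes lay at 0.13 in GL, 0.11 in EPL, 0.09 in GCL-I and 0.10 in E on the log2 scale.

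**Figure D2:**
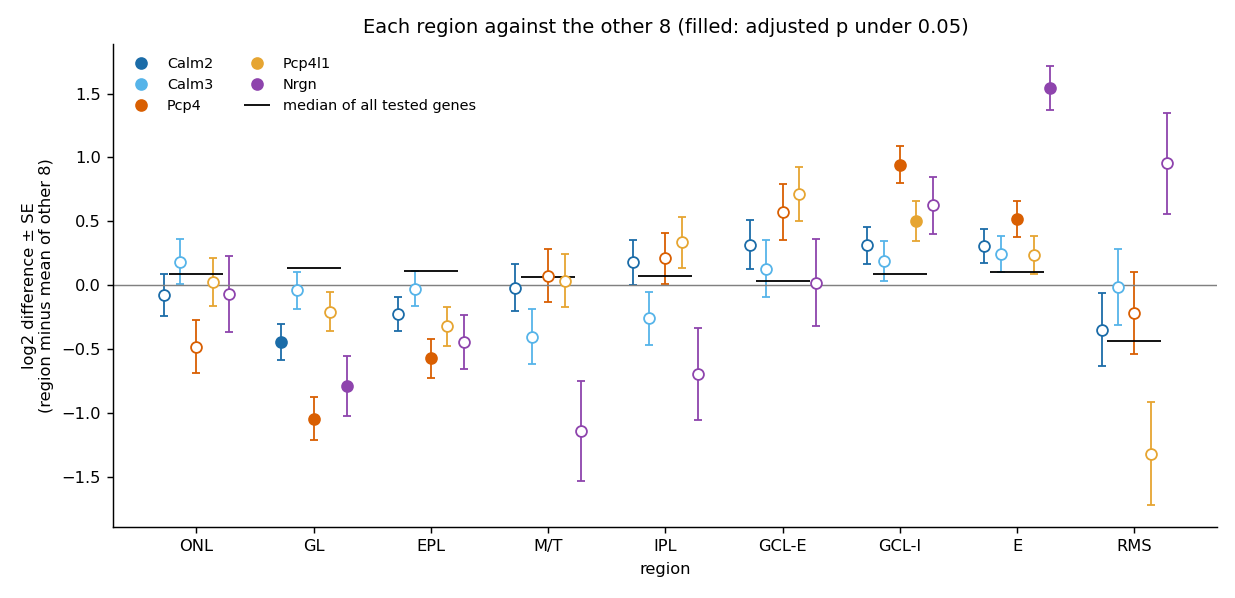
Log2 difference of each region minus the mean of the other 8 (y axis, whiskers are the SE of the fit) for the 5 members in each region (x axis). Filled points passed at an adjusted p under 0.05 and black bars mark the median of all 1996 tested genes. Filled points lie below 0 in GL and EPL and above 0 in GCL-I and E.

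Pcp4, the fast calcium-exchange partner of calmodulin, gave the broadest pattern. In the internal granule cell layer it measured 2316, 1600 and 1534 CPM in sections 1, 2 and 3, against 1317, 888 and 736 CPM in the mean of the other regions. The layer was above the rest in 3 of 3 sections, with means of 1816 ± 434 and 981 ± 301 CPM (SD, n = 3), and the fitted log2 difference was 0.94 ± 0.15 (SE, edgeR adjusted p = 1.8e-07). Among all tested genes 2.4% were called higher in this layer. Leaving out any section kept the call, with an adjusted p of at most 0.0091.

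In the glomerular layer, where sensory axons end on their target neurons, Pcp4 had 897, 311 and 378 CPM in sections 1, 2 and 3, against 1495, 1050 and 881 CPM in the mean of the other regions. GL was lower in each of the 3 sections. The means were 529 ± 321 and 1142 ± 317 CPM (SD, n = 3), and the log2 difference was -1.05 ± 0.17 (SE, edgeR adjusted p = 6.1e-08), with 2.15% of all tested genes called lower in GL. The call held without any 1 section, at an adjusted p of at most 0.026.

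The external plexiform layer had 1156, 438 and 447 CPM of Pcp4, against 1462, 1034 and 872 CPM in the other regions. It too was lower in 3 of 3 sections, by -0.57 ± 0.15 on the log2 scale (SE, edgeR adjusted p = 0.0028), where 1.35% of all tested genes were called lower. This call held without section 1 and was lost when section 2 (adjusted p = 0.35) or section 3 (0.13) was left out. In the ependymal cell zone Pcp4 had 1726, 1260 and 1139 CPM, against 1391, 931 and 786 CPM elsewhere. E was higher in each section, by 0.52 ± 0.14 on the log2 scale (SE, edgeR adjusted p = 0.018), and 2.15% of all tested genes were called higher there. That call was lost without section 2 (0.47), without section 3 (0.17), with RLE scaling (0.073) and with DESeq2 (0.15).

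Nrgn, the postsynaptic calmodulin store, was highest in the ependymal cell zone. It measured 1158, 664 and 905 CPM there in sections 1, 2 and 3, against 523, 334 and 200 CPM in the mean of the other regions. The zone was above the rest in all 3 sections and its 3 values also lay above those of GCL-I in the same sections (584, 445 and 511 CPM). The means were 909 ± 247 and 352 ± 162 CPM (SD, n = 3), a ratio of 2.58, and the log2 difference was 1.54 ± 0.17 (SE, edgeR adjusted p = 5.2e-16). Without section 1, 2 or 3 the adjusted p was at most 4e-08.

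Markers of other cells moved in the same zone. Penk, an opioid peptide precursor gene on the granule cell list, was higher in E by 1.17 on the log2 scale (edgeR adjusted p = 1.3e-07), and 3 of the 9 tested genes of that list were called higher there. The list as a whole was lower in E than in GCL-I, unlike Nrgn. Its 10 genes summed to between 6248 and 6952 CPM in E, against between 7711 and 8661 CPM in GCL-I. The oligodendrocyte list rose in 2 of 5 tested genes (Mbp, 1962 ± 577 CPM, and Mobp, 667 ± 138 CPM), and its 8 genes summed to between 3635 and 5677 CPM in E, against between 1839 and 3054 CPM in EPL. The value of 5677 CPM was that of section 1. High sums were not particular to E, since the list summed to between 3581 and 4600 CPM in IPL and between 4456 and 12527 CPM in RMS. The part of these cells in the Nrgn value was not tested. Neurogranin is best known from excitatory neurons of the forebrain cortex, and of the marker genes of those neurons Neurod6 and Neurod2 had 0 counts in E, Slc30a3 stood at 9.40 ± 8.56 CPM and Tbr1 at 3.78 ± 6.55 CPM. Of the same list, Cck (153 ± 73.5 CPM), Lamp5 (116 ± 56.6 CPM) and Rorb (43.7 ± 51.5 CPM), were present in E, and the 7 genes of the list in the files summed to between 235 and 397 CPM there, against between 558 and 1004 CPM in EPL.

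In the glomerular layer Nrgn had 367, 126 and 144 CPM, against 621, 401 and 295 CPM in the other regions. It was lower in each section, with a log2 difference of -0.79 ± 0.24 (SE, edgeR adjusted p = 0.013), and the call was lost without section 2 (0.32) and without section 3 (0.12). The mitral layer had the lowest mean, 173 ± 70.0 CPM on 13 counts, and its log2 difference of -1.14 ± 0.39 did not pass (edgeR adjusted p = 0.12). In the rostral migratory system Nrgn had 921 and 1162 CPM in sections 1 and 2 and 0 counts in section 3, where 3 counts would be 2060 CPM.

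Pcp4l1, the relative of Pcp4, had its highest mean in the external granule cell layer, with 1751, 1367 and 1750 CPM in sections 1, 2 and 3, against 1071, 955 and 1074 CPM in the other regions. The means were 1623 ± 221 and 1033 ± 68.1 CPM (SD, n = 3). GCL-E was above the rest in 3 of 3 sections, but its log2 difference of 0.71 ± 0.21 did not pass (edgeR adjusted p = 0.098). It was called by DESeq2 (0.025) and by edgeR with RLE scaling (0.030), with library sizes only (0.012) and without the RMS sum of section 3 (0.049). In GCL-I it had 1498, 1485 and 1108 CPM, against 1102, 940 and 1155 CPM elsewhere. GCL-I was thus higher in 2 of 3 sections, and the log2 difference of 0.50 ± 0.16 passed narrowly (SE, edgeR adjusted p = 0.047). It did not pass without section 1 (0.089), 2 (0.56) or 3 (0.076), without the rostral migratory system (0.11), with spots joined by name (0.059) or with DESeq2 (0.067). Whether the peaks of Pcp4 and Pcp4l1 lie in different layers was not tested, and neither gene passed in GCL-I against GCL-E (log2 difference 0.33 ± 0.23 for Pcp4 and -0.19 ± 0.24 for Pcp4l1, edgeR adjusted p = 0.997 for both).

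Calm2, a calmodulin gene, was lowest in the glomerular layer. It had 1366, 986 and 1029 CPM there, against 1795, 1636 and 1743 CPM in the other regions. Each section showed the lower value, and the means were 1127 ± 208 and 1725 ± 81.1 CPM (SD, n = 3), with a log2 difference of -0.44 ± 0.14 (SE, edgeR adjusted p = 0.021). The call needed section 2 (adjusted p = 0.41 without it) and section 3 (0.25 without it). In the 4 innermost regions the means lay between 1821 and 2040 CPM, and none of these regions passed (edgeR adjusted p between 0.21 and 0.61). When spots near another region were left out, edgeR called Calm2 higher in GCL-I (0.75, adjusted p = 0.012) and in E (0.80, adjusted p = 0.0013). The median of all 1185 genes tested in that fit was itself 0.64 in GCL-I and 0.64 in E. Of these genes 183 were called higher in GCL-I and 298 in E, and 0 were called lower in either.

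Calm3, which encodes the same protein, passed in none of the 9 regions with edgeR on all spots or with DESeq2, and 0 of its 9 edgeR tests had an unadjusted p under 0.05. When spots near another region were left out, edgeR called it higher in ONL (log2 difference 0.71, adjusted p = 0.033) and in E (0.69, adjusted p = 0.012). The median of all 1185 genes tested in that fit was close to these values, 0.69 in ONL and 0.64 in E. Of these genes 202 were called higher in ONL and 298 in E, and 0 were called lower in either. A fit of the 5 wide regions alone, with the same spots left out, set each against the mean of the other wide regions. There edgeR called Calm3 in neither ONL nor E (adjusted p = 0.77 and 0.41). Its region means lay between 848 ± 51.0 CPM in the mitral layer and 1647 ± 453 CPM in the rostral migratory system (SD, n = 3). In the glomerular layer it had 1427, 814 and 877 CPM, against 1502, 930 and 1205 CPM elsewhere. The values of section 1 exceed those of section 2 in 8 of the 9 regions. The data do not show that Calm2 and Calm3 differ in their layering, since no test of that difference was made. Without the filter on low counts Calm3 passed the test over the 9 regions (adjusted p = 0.013).

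Some of these calls depend on the processing as well. Without section as a block only Nrgn in E stayed past the threshold (edgeR adjusted p = 0.029). When spots up to 5 array positions from another region were dropped, Pcp4 turned to 0.15 in GL and 0.62 in EPL and Nrgn to 0.22 in GL, none of them past the threshold. The call of Calm2 in GL was lost (-0.03, adjusted p = 0.93), and Pcp4 in GCL-I stood at 2.16, Pcp4 in E at 1.76 and Nrgn in E at 2.61. There were then 8 calls that were higher in the region and 0 that were lower. Of the 1185 genes tested then, 202 were called higher in ONL, 285 in GL, 303 in EPL, 183 in GCL-I and 298 in E. In each of these regions 0 were called lower, so the direction of the calls is not particular to the members. The median of all tested genes moved to 0.65 in GL, 0.66 in EPL, 0.64 in GCL-I and 0.64 in E. That step leaves between 71 and 2594 counts in GCL-E. A fit of the 5 wide regions alone (ONL, GL, EPL, GCL-I and E) sets each against the mean of the other wide regions, not of the other 8. In that different comparison all 8 member and region pairs passed with the same spots left out. Without the filter on low counts, Calm2 in GL (edgeR adjusted p = 0.64), Pcp4 in EPL (0.52) and Nrgn in GL (0.31) did not pass. In that fit the median of all 19621 genes moved to 0.56 in GL and 0.57 in EPL. The log2 difference was then -0.17 for Calm2 in GL and -0.23 for Pcp4 in EPL.

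No member passed in ONL, M/T, IPL, GCL-E and RMS (5 regions) with edgeR on all spots, where 6 of 25 tests had an unadjusted p under 0.05 and DESeq2 called 1 (Pcp4l1 in GCL-E). Of all tested genes, 6.66% were called there in either direction in ONL, 2.2% in M/T, 0% in IPL, 0.401% in GCL-E and 0.902% in RMS. For IPL this means 0 of 1996 genes in edgeR and in DESeq2, with 140 at an unadjusted p under 0.05 in edgeR. In the rostral migratory system, Pcp4l1 had 430, 581 and 2060 CPM on 7, 3 and 3 counts.

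With regions ordered by mean level, the ranges over the 3 sections overlapped between each region and the next in order. This held for each of the 5 members (8 of 8 pairs each). Such ranges ignore that the regions of a section are paired. Pcp4 was lower in GL (897, 311 and 378 CPM) than in EPL (1156, 438 and 447 CPM) in each section, and its ranges still overlapped. For Nrgn the order ran from E (909 CPM) over RMS (694), GCL-I (513), GCL-E (376), ONL (362), EPL (255), IPL (231) and GL (212) to M/T (173). For Pcp4 it ran from GCL-I (1816 CPM) over GCL-E (1455), E (1375), IPL (1153), M/T (1001), RMS (946), ONL (706) and EPL (680.1) to GL (529). For Pcp4l1, GCL-E (1623 CPM) stood at the top and EPL (710.1 CPM) at the bottom, and for Calm2 GCL-E (2040 CPM) and GL (1127 CPM) did.

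Regions that touch were also compared directly, the deeper minus the shallower. None of the 40 tests of a member passed in edgeR or in DESeq2, and 6 had an unadjusted p under 0.05 in edgeR and 8 in DESeq2. The smallest of these belonged to Nrgn in E against GCL-I (log2 difference 0.82 ± 0.23, edgeR adjusted p = 0.19, and 0.041 with boundary spots left out) and to Pcp4l1 in RMS against E (-1.38 ± 0.42, adjusted p = 0.13). Of all tested genes, 1.9% were called in GL against ONL, 1.6% in EPL against GL, 3.21% in M/T against EPL and 0.2% in IPL against M/T. In GCL-E against IPL, GCL-I against GCL-E, E against GCL-I and RMS against E the share was 0%, with 115, 71, 128 and 262 genes at an unadjusted p under 0.05 in edgeR and 0, 0, 1 and 0 calls in DESeq2.

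A wider contrast set the granule cell layers (the mean of GCL-E and GCL-I), which hold the cell bodies of granule cells, against the external plexiform layer, which holds their dendrites. In it 3 of the 5 members were higher in the granule cell layers, where 4.41% of all tested genes were. Pcp4 had 2033, 1295 and 1579 CPM in the granule cell layers of sections 1, 2 and 3, against 1156, 438 and 447 CPM in EPL. The groups did not overlap, and the means of 1636 ± 372 and 680.1 ± 412 CPM (SD, n = 3) gave a ratio of 2.41 and a log2 difference of 1.18 ± 0.18 (SE, edgeR adjusted p = 5.6e-09). Pcp4l1 had 1625, 1426 and 1429 CPM in the granule cell layers, against 674, 706 and 750.2 CPM in EPL. These groups were wide apart, with a ratio of means of 2.10 and a log2 difference of 0.83 ± 0.18 (SE, edgeR adjusted p = 7.1e-05).

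Calm2 had 2081, 2082 and 1832 CPM in the granule cell layers, against 1651, 1051 and 1125 CPM in EPL. The groups did not overlap (log2 difference 0.48 ± 0.16, edgeR adjusted p = 0.027), but the call was lost without section 2 (0.57) and without section 3 (0.19). Nrgn had 568, 364 and 401 CPM in the granule cell layers, against 468, 170 and 128 CPM in EPL, and its log2 difference of 0.68 ± 0.28 did not pass (edgeR adjusted p = 0.088), though it did with RLE scaling (0.038), with library sizes only (0.012) and without section 1 (0.018). That of Calm3 did not pass (0.17 ± 0.18, edgeR adjusted p = 0.63). The median of all tested genes in this contrast was -0.07. Markers of granule cells moved with it: 6 of 9 tested genes of the list were higher in the granule cell layers, and the 10 genes of the list summed to between 7711 and 8661 CPM in GCL-I, against between 3424 and 4870 CPM in EPL. The part of a different number of granule cells in the values of the members was not tested. With boundary spots left out, Pcp4 and Calm2 turned to -3.13 and -0.43 while the median of all tested genes moved to -1.05, and none of the 3 calls held. Without the filter on low counts Calm2 (edgeR adjusted p = 0.98) and Pcp4l1 (0.19) did not pass. In that fit Calm2 stood at 0.13 and the median of all 19621 genes at -0.48.

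Levels were also counted per spot in place of CPM. The spots of GCL-I held more counts than those of GL in each section, which raises the ratio of these layers. The ratios are of means over the sections, so the rise was not alike for all members. Pcp4 gave 1.43 ± 0.27 counts per 1000 spots in GCL-I and 0.29 ± 0.02 in GL (SD, n = 3), and the ratio of GCL-I over GL was 4.88 per spot and 3.44 in CPM. Nrgn gave 0.60 ± 0.02 counts per 1000 spots in E and 0.12 ± 0.01 in GL. Section by section, Nrgn had 0.63, 0.58 and 0.59 counts per 1000 spots of E in sections 1, 2 and 3. Counts per spot are not scaled to the depth of a section. By this measure section 1 was the lowest for Calm2 in GL (0.42, 0.996 and 0.78) and for Pcp4l1 in EPL (0.19, 0.64 and 0.48). For Calm3 the ratio of GCL-I over GL was 1.59 per spot and 1.28 in CPM.

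The position of a spot relative to the mitral layer gave a finer view within and across regions. Distance was counted in array positions to the nearest spot of the mitral layer, in bins of 20 that held at least 5000 counts in each section, outward toward the nerve layer and inward toward the core. Nrgn lay between 110 and 328 CPM in the 8 outward bins, at 173 ± 70.0 CPM in the mitral layer itself, and then at 308 ± 139, 444 ± 45.5, 814 ± 156, 1018 ± 214 and 1104 ± 295 CPM in the 5 inward bins from near to far (SD, n = 3). In sections 1 and 2 the farthest inward bin was the highest inward bin, and in section 3 the bin before it was. Pcp4 lay between 487 and 789 CPM outward, at 1001 ± 87.7 CPM in the mitral layer and between 1324 and 1849 CPM inward, with the highest mean at 20 to 40 positions inward (2611, 1436 and 1500 CPM in sections 1, 2 and 3). That bin was the highest in section 1 alone. In section 2 the bin at 60 to 80 positions stood at 1505 CPM, and in section 3 the farthest bin stood at 1518 CPM.

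Pcp4l1 had its highest mean at the same distance, 1459 ± 246 CPM, which was the highest inward bin in sections 1 and 2 but not in section 3, and stood at 935 ± 365 CPM in the farthest bin. Outward of the mitral layer it lay between 634 and 1057 CPM. Calm2 was at 1515 ± 303 CPM in the mitral layer, and its highest mean, 2072 ± 68.4 CPM, lay 40 to 60 positions inward. Of all bins that one was the highest in section 3 alone. Calm3 had its lowest mean at the mitral layer itself (848 ± 51.0 CPM) and its highest in the farthest inward bin (1729 ± 529 CPM). The mitral layer was its lowest bin in section 1 alone. Outward bins of Calm3 went down to 595 CPM in section 2 and 764 CPM in section 3, against 906 and 812 CPM in the mitral layer.

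**Figure D3:**
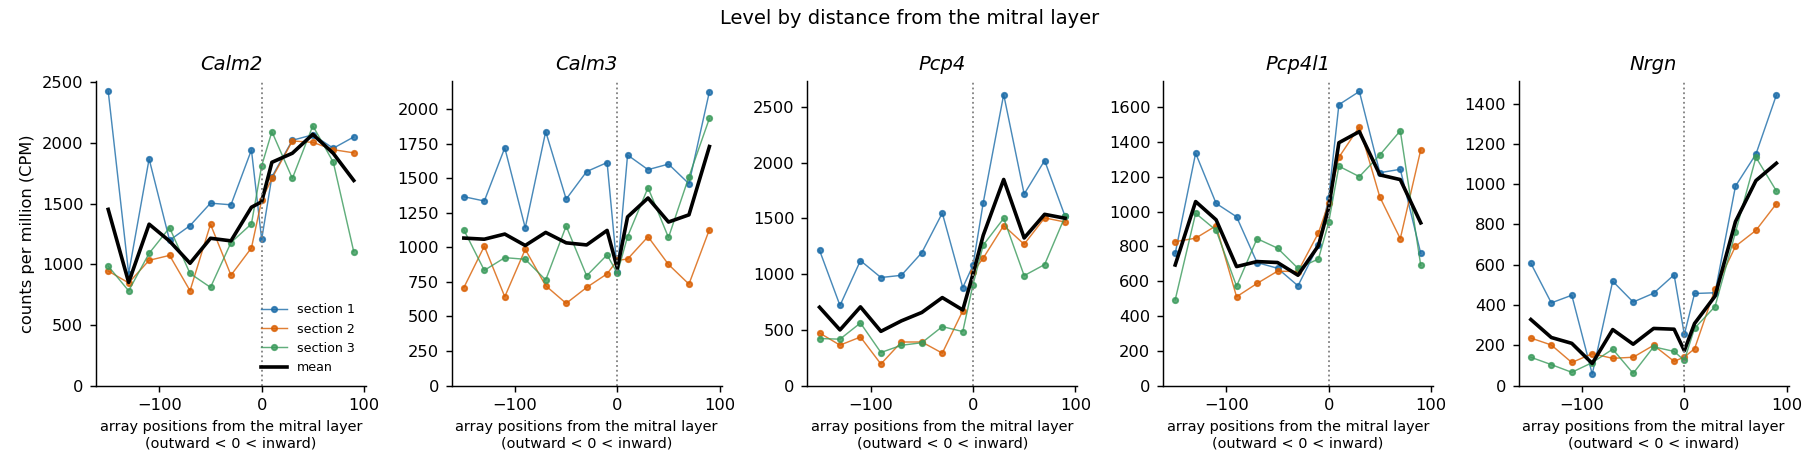
Level of each member (CPM, y axis) by distance from the mitral layer in array positions (x axis; negative is outward, positive is inward, 0 is the mitral layer). Thin coloured lines are the 3 sections and the black line their mean. Nrgn stands at 1104 CPM in the farthest inward bin, while Pcp4 and Pcp4l1 have their highest mean 20 to 40 positions inward, where section 1 of Pcp4 stands at 2611 CPM.

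The balance of Calm2 and Calm3 is given as a description, with no test. Of the counts of Calm2 and Calm3 together, Calm2 held 52.6 ± 3.2% in GL, 55.6 ± 3.8% in EPL, 63.7 ± 4.9% in M/T, 64.5 ± 8.2% in IPL and 59.4 ± 7.4% in E (SD, n = 3). Section by section the share in M/T was 59.4, 62.8 and 69.0%, against 48.9, 54.8 and 54.0% in GL. It was higher in EPL, M/T, IPL, GCL-E, GCL-I and E than in GL, the region with the lowest mean, in 3 of 3 sections. In ONL and RMS it was higher than in GL in sections 1 and 2 but not in section 3.

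**Figure D4:**
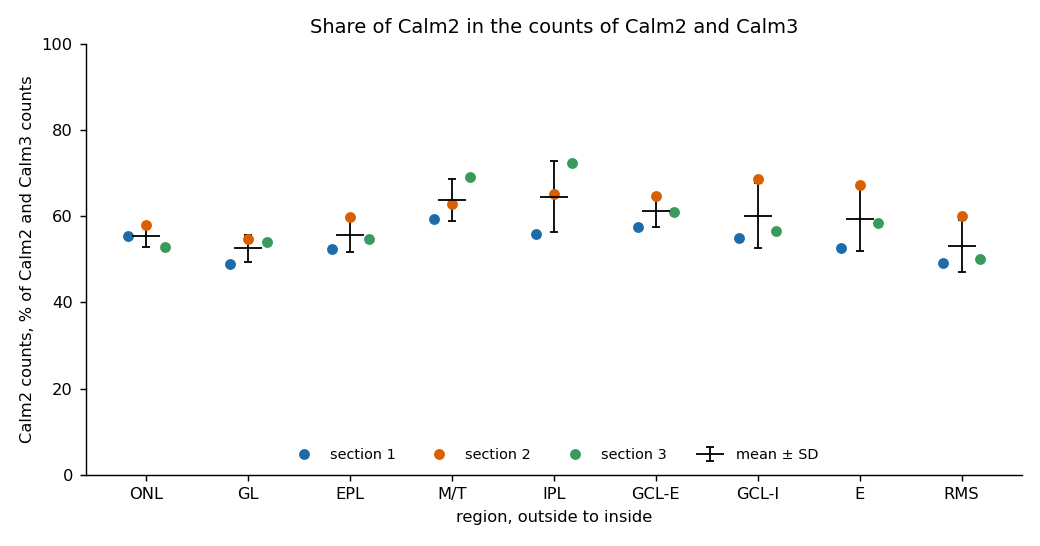
Share of Calm2 in the counts of Calm2 and Calm3 (%, y axis) in the 9 regions from outside to inside (x axis). Coloured points are the 3 sections, horizontal bars the mean and whiskers the SD. The mean is highest in IPL (64.5%) and lowest in GL (52.6%), and the 3 sections lie between 56% and 72.4% in IPL and between 48.9% and 54.8% in GL.

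Processed pseudogenes that resemble the calmodulin transcripts add a limit to their counts. Gm7308 (96.9% identical to Calm2 over 447 bases) had 95 counts, Gm15720 (98.2% over 276 bases) had 11, and Gm5881 (96.2% identical to Calm3 over 367 bases) had 23. Gm7308 had a single count in the 9 regions of section 1, and its part in the Calm2 level was not tested. How reads that match both were counted is not stated in the labels or files. Pcp4 overlaps Igsf5 on the same strand, and Igsf5 had 0 counts. Pcp4l1 and Nrgn had no gene that overlaps them or resembles them by this measure.

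**Figure D5:**
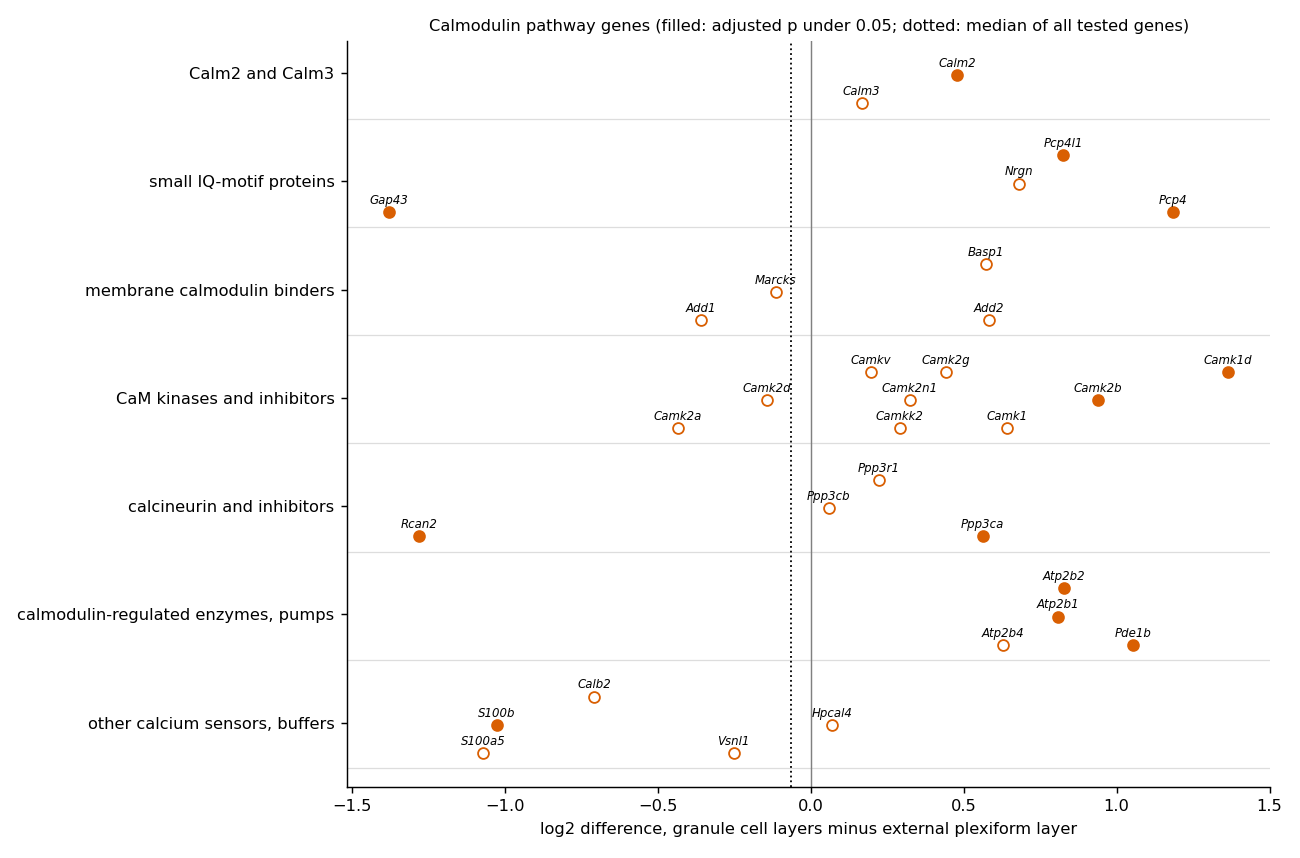
Log2 difference of the granule cell layers minus the external plexiform layer (x axis) for the tested genes of 7 groups of the calmodulin system (rows, the first of them Calm2 and Calm3). Filled points passed at an adjusted p under 0.05 and the dotted line is the median of all tested genes (-0.07). Pcp4, Camk2b, Camk1d, Ppp3ca, Atp2b1, Atp2b2 and Pde1b lie to the right, and Gap43, Rcan2 and S100b to the left.

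Other genes of the calmodulin system were read from the same fit, in lists formed by role with earlier results of these data known. Gap43, a growth-cone protein with the same kind of motif, was highest in the mitral layer (408 ± 98.0 CPM there and 129 ± 68.4 CPM elsewhere, log2 difference 1.97, edgeR adjusted p = 7.8e-05). Among the small IQ-motif proteins, Gap43 went against the members: it had 71.5 ± 57.5 CPM in the granule cell layers and 173 ± 46.6 CPM in EPL (SD, n = 3, log2 difference -1.38 ± 0.45, edgeR adjusted p = 0.018). Of 13 calmodulin kinases and their inhibitors 9 were tested, and 2 were higher in the granule cell layers. Camk2b, a subunit of the synaptic kinase CaMKII, had 827 ± 195 CPM there and 377 ± 64.1 CPM in EPL (log2 difference 0.94, adjusted p = 2.1e-04), and Camk1d had 173 ± 52.6 and 61.0 ± 32.6 CPM (1.37, adjusted p = 0.028). Camk2a, the subunit that binds alongside it, had 443 ± 106 CPM in the granule cell layers and 479 ± 255 CPM in EPL and did not pass (adjusted p = 0.22). The median of the 9 genes was 0.32.

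Of the 4 tested genes of calcineurin, the calmodulin-dependent phosphatase, and its regulators, Ppp3ca was higher (983 ± 519 CPM in the granule cell layers and 598 ± 103 CPM in EPL, edgeR adjusted p = 0.028). Rcan2, a calcineurin inhibitor gene, was lower (131 ± 30.9 and 277 ± 77.7 CPM, adjusted p = 0.0041). Of 11 calmodulin-regulated enzymes and pumps 4 were tested and 3 were higher, the plasma membrane calcium pumps Atp2b1 (1185 ± 418 CPM in the granule cell layers and 585 ± 133 CPM in EPL, adjusted p = 3e-04) and Atp2b2 (535 ± 138 and 271 ± 16.9 CPM, adjusted p = 0.0064) and the phosphodiesterase gene Pde1b (255 ± 41.0 and 119 ± 76.3 CPM, adjusted p = 0.031). The median of these 4 was 0.82, beside -0.07 for all tested genes. None of the 4 tested membrane calmodulin binders passed, with Marcks at 448 ± 249 CPM in the granule cell layers and 404 ± 85.9 CPM in EPL.

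In the ependymal cell zone, where Nrgn peaked, 3 of the 9 tested kinase genes were higher than in the other regions. These were Camk2n1, an inhibitor of CaMKII (1202 ± 97.1 CPM, log2 difference 0.79, edgeR adjusted p = 5.4e-05), Camk2a (633 ± 219 CPM, 0.77, adjusted p = 0.0043) and Camk2b (776 ± 85.4 CPM, 0.60, adjusted p = 0.020). Ppp3ca (1116 ± 564 CPM, adjusted p = 0.019) and Ppp3r1 (555 ± 13.0 CPM, adjusted p = 0.047), the catalytic and regulatory subunits of calcineurin, were higher as well. The median of the 9 kinase genes in E was 0.54, beside 0.10 for all tested genes. Of the 5 tested calcium sensors and buffers outside the calmodulin family none was higher in E, and Calb2 was lower (230.0 ± 67.5 CPM in E, log2 difference -1.03, adjusted p = 0.0035).

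The members differed in which genes tracked them most closely over the 27 sums, as a description that gives no p and in which sums from the same section have tissue and array in common. For Pcp4 the 3 tested genes with the highest Pearson correlation of log2(CPM + 10), centred per section, were Mapk8ip3 (r = 0.96), Camk2b (0.96) and Napb (0.96), beside a median of 0.47 over all tested genes. Without section 3, whose rostral migratory system had 0 counts of Pcp4, these values were 0.85, 0.75 and 0.83. For Nrgn they were Psd (0.88), Ppp3ca (0.86) and Zmynd11 (0.85), beside a median of 0.28. Without section 3 these 3 genes stood at 0.82, 0.74 and 0.62, at places 2, 10 and 54 among the tested genes. Calm2 was closest to Prkca (0.82), Syne1 (0.74) and Itm2c (0.73), which without section 3 fell to places 12, 15 and 26. Calm3 was closest to Sez6 (0.80), Nap1l1 (0.77) and Chmp2b (0.76), which without section 3 stood at places 30, 2 and 9. Pcp4l1 was closest to Nav2 (0.75), Bmi1 (0.74) and Aldoa (0.74). Without section 1 Nav2 and Bmi1 stood at 0.67 and 0.65, at places 46 and 52 among the tested genes. The correlations between the members turned on the RMS sum of section 3, which had 1456 counts and 0 of Pcp4 and of Nrgn. With it Pcp4 and Nrgn stood at 0.83, Pcp4 and Pcp4l1 at -0.07 and Calm2 and Pcp4 at 0.23. Without it these pairs stood at 0.63, 0.54 and 0.85. Calm2 and Calm3 stood at 0.57 with it and at 0.55 without it.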

How the data were processed

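Poly(A) RNA was measured on spot arrays in 3 sections of main olfactory bulb. The deposited values are raw counts per spot and gene, as the files show (integers whose totals differ between sections), and the deposited annotation gives each spot a pixel position and a region. Per the submitters' processing notes, mm10 was the build. The aligner and the counter are not given in the sources used here. Counts without a gene name (112, 497 and 405, or 0.0325%, 0.0764% and 0.0801% of a section) and spots in no region were left out of sums and tests.

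Pixel position tied each spot to its region (100% matched in each section). By spot name, 97.1% of the entries of sections 2 and 3 fell in the same region. Counts were summed per section and region. All genes were fitted with edgeR 4.0.16 (quasi-likelihood, R 4.3.3), with terms for region and for section, TMM factors and filterByExpr at a minimum count of 10, and p-values were adjusted over all 1996 tested genes within a comparison at a threshold of 0.05. Section was the block because the sums of a section come from the same slice of tissue and array. Totals limit the precision, most in the rostral migratory system.

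The members and gene lists were chosen with earlier results of these data known. The genes named were the members, the 2 to 4 list genes with the most counts, list genes that passed, and the 3 tested genes most like each member. Lists of olfactory sensory axon, ensheathing glia, blood, astrocyte, mitral and tufted cell and neuroblast genes were read as well (closing observations). The fit was tested on simulated counts. Some genes that the rule takes are not reported here. Symbols were matched to GENCODE M21 (99.8% of 19621), coding sequences came from its principal transcripts, and similar transcripts were found with blastn 2.17.0 (at least 95% identity over at least 100 bases). Motifs were searched in the translated reading frame. Alternatives were other scalings, no filter, no section block, each section left out, boundary spots left out, a join by name, DESeq2 1.42.0 and, after the data were seen, fits of the 5 wide regions and fits and correlations without the RMS sum of section 3. Tables were made in Python 3.11.15 with pandas 2.3.3, numpy 2.4.6 and scipy 1.17.1, and figures with matplotlib 3.10.9.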

Additional observations from a re-analysis of the deposited data

Results flagged for a closer look

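Spots that the annotation places in no region held a few counts of the members, outside all comparisons. In section 2 they held 6 counts of Calm2, 5 of Calm3 and 5 of Pcp4l1, and in section 3 they held 4 counts of Calm2, each above 3 counts, the limit that an observed count of 0 allows. These spots summed to 5699 counts in section 2 and 3435 in section 3, so Calm2 stood at 1053 and 1164 CPM there.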

How the results depend on the processing

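The tests rest on section as a block. With no replicate block, 1 of 5 members passed over the 9 regions, 1 of 45 against the other regions (Nrgn in E, adjusted p = 0.029) and 0 in the granule contrast. Leaving out each section gave from 2 to 4 members over the 9 regions, from 3 to 8 calls against the other regions, 0 to 1 between neighbours and 2 to 4 in the granule contrast. With library sizes alone 13 calls were made against the other regions, 5 higher and 8 lower, beside 4 and 4, and 1 between neighbours, and the median of all genes in the granule contrast moved to 0.16. Without a filter on low counts 3 neighbour tests (all in RMS against E, where the median of all genes was -0.95) and 1 granule test passed. Leaving out boundary spots left from 71 to 2594 counts in GCL-E and gave 2 neighbour calls and 0 granule calls; it turned the sign of Pcp4 in GL (0.15), EPL (0.62) and the granule contrast (-3.13), of Calm2 in the granule contrast (-0.43) and of Nrgn in GL (0.22), while the median of all genes moved to between 0.65 and 0.66 in GL and EPL and to -1.05 in the granule contrast. With the same spots left out of the 5 wide regions alone, each against the mean of the other wide regions, all 8 calls were shared and 1 neighbour test passed. Over 125 single results under the alternatives, 1263 values counted as unchanged, 41 lost and 35 gained a call, 5 turned sign and 6 ratios or distance bins moved. A test counted as unchanged if it stayed on its side of the threshold. A turn of sign was not counted where both fits failed to pass. The ratios, correlations and distance bins among these results have no threshold. Depth limits RMS most.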

Other observations

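The lists read beside the members placed other cells in the layers. Astrocyte genes were higher in EPL than in the other regions for 9 of 10 tested genes and lower in the granule cell layers than in EPL for 9 of 10, beside 215 and 205 of all 1996 tested genes, and their sum was 5859 ± 1536 CPM in GCL-I and 12618 ± 5098 CPM in EPL (SD, n = 3). Mitral and tufted cell genes were lower in the granule cell layers than in EPL for 5 of 5 tested genes. In GL 3 of 3 tested sensory axon genes, 3 of 3 ensheathing glia genes and 3 of 4 blood genes were higher than in the other regions, beside 175 of all 1996. They were higher still in ONL, with sums of 827, 1937 and 1621 CPM in GL and 1612, 4370 and 2708 CPM in ONL, and in GL against ONL 2, 2 and 1 of their genes were called lower. Of the 6 tested neuroblast genes 1 was higher and 1 lower in the granule cell layers than in EPL.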
